A study of Mus musculus with 16 samples.

Results

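Nlrp3 is the mouse gene for the inflammasome sensor NLRP3 (gene 216799, chromosome 11, 59541569 to 59566955 on GRCm38, 25387 bp). The locus was taken as the gene with 50 kb either side (59491569 to 59616955), and its members are the chromatin immunoprecipitation (ChIP-seq) peaks of any of the 9 deposited lists that meet this window. There were 58 such peaks out of 368675 in all lists. They comprised 4 EZH2 peaks after nigericin, 1 EZH2 peak in untreated cells, 1 p53 peak, 12 H3K27ac peaks, 12 H3K27me3 peaks and 28 SIRT1 peaks. Of the 21883 protein-coding genes, 25.3% had a nigericin EZH2 peak in such a window, 37.9% an untreated EZH2 peak, 15.2% a p53 peak, 58.8% an H3K27ac peak and 62.9% an H3K27me3 peak.

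NLRP3 is a cytosolic sensor that, once activated, recruits the adaptor ASC (Pycard) and the protease caspase-1, which cuts the cytokines IL-1β and IL-18 and the pore-former gasdermin D. Macrophages are known to need a priming step, usually a Toll-like receptor signal through NF-kB, that raises NLRP3 and pro-IL-1β, and then a trigger such as potassium efflux. EZH2 is the methyltransferase of Polycomb repressive complex PRC2 and writes H3K27me3, a mark of silenced genes. H3K27ac marks active promoters and enhancers, p53 is a DNA-binding tumour suppressor, and SIRT1 is an NAD-dependent deacetylase.

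The cells were C57BL/6 macrophages grown from the bone marrow of adult mice for 5 days with M-CSF. EZH2 was immunoprecipitated from wild-type cells given nigericin, a potassium ionophore, after LPS priming, and from untreated wild-type cells. SIRT1 was immunoprecipitated from untreated Ezh2 knockout, Ezh2 wild-type, p53 knockout and p53 wild-type cells, and p53, H3K27ac and H3K27me3 from untreated wild-type cells. How the knockouts were made, and whether cells of several mice were pooled, is not stated in the labels. Each of the 9 groups was 1 library, so no difference between groups has a replicate check and no test was possible. Because no library received only LPS, the effects of priming and of nigericin cannot be told apart. The sources used here do not give the depth of each library in reads. The whole number of fragments at each summit was recovered from the deposited fold and p-value. The 95% intervals of single peaks are exact Poisson intervals on those fragments. That of the EZH2 ratio is an exact binomial interval on the fragments of both peaks, rescaled to fold. These intervals hold the local background fixed and cover counting error of the fragments only. The most common local background was 2.34 fragments for EZH2 after nigericin, 2.74 for untreated EZH2, 1.95 for p53, 2.68 for H3K27ac, 3.05 for H3K27me3 and 0.722 to 0.854 for SIRT1. The H3K27ac list fitted the cell label at the macrophage markers: all 8 had an H3K27ac peak and 0 had H3K27me3. H3K27ac was also seen at 2 of 5 lymphocyte (Cd3d and Cd79a), 0 of 5 neutrophil, 1 of 4 stromal (Pdgfrb) and 0 of 4 erythroid markers. H3K27me3 was seen at 4 of 5 lymphocyte, 3 of 5 neutrophil, 4 of 4 stromal and 1 of 4 erythroid markers. Cd3d and Pdgfrb had both marks. Over the gene with 1 kb either side, 33.7% of all protein-coding genes had H3K27ac and 29.9% had H3K27me3.

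RefSeq places Nlrp3 on the plus strand with a start at 59541569 and another 1117 bp further on, at 59542686. The promoter windows of both starts are shown because the strongest H3K27ac peak of the locus covers them while no EZH2 or p53 peak does, and that of the olfactory receptor gene Olfr222, next to Nlrp3, because it lies in the H3K27me3 region. Each runs from 250 bases before to 50 bases after the start, 5′ to 3′ on the gene's strand, from RefSeq (GRCm38.p6), with CpG dinucleotides in capitals. They are chr11:59541319-59541618 (plus strand), chr11:59542436-59542735 (plus strand) and chr11:59571689-59571988 (minus strand).
Nlrp3, start at 59541569: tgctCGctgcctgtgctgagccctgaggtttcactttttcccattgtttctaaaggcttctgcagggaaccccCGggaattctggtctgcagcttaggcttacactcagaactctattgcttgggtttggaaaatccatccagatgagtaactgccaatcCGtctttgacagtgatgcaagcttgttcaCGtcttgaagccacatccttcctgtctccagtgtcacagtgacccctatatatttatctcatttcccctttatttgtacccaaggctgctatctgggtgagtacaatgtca
Nlrp3, start at 59542686: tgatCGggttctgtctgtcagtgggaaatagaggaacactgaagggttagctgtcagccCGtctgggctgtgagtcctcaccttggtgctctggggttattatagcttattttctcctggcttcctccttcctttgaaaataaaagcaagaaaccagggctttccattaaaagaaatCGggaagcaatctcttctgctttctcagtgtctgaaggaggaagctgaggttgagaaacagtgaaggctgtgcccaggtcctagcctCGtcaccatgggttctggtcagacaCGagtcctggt
Olfr222: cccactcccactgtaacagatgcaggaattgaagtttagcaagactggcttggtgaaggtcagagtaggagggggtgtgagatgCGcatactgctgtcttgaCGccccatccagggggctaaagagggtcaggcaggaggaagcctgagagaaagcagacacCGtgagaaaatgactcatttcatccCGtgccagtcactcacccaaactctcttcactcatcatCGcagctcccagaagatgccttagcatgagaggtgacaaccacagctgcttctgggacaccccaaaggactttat

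Both Nlrp3 promoter windows held somewhat fewer CpG than the median promoter. The one at 59541569 held 4 CpG at a GC content of 47.3%, and the one at 59542686 held 5 at 49.3%, where the median of all 32841 promoter windows was 7 CpG and 52.7%. Of all windows, 31.4% had fewer CpG than the one at 59541569 and 38.0% fewer than the one at 59542686. Olfr222 had 5 CpG at 52.7% GC. Of the downstream receptor genes, Olfr223 had 2 CpG and Olfr225 had 4, whereas the upstream neighbours Zkscan17, a zinc-finger gene, and 4933439C10Rik, a long non-coding RNA gene, had 14 and 11.

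Simple motif matches were counted on both strands, and several of these motifs overlap one another. The repeated unit of the p53 consensus matched once at the 59541569 start (AAGCTTGTTC, at position −72 from it) and not at the 59542686 start; 8.36% of all promoter windows hold such a match. CATG, the inner letters of many p53 sites, was absent from the window at 59541569 and present once in the window at 59542686 (61.1% of all windows). A loose form of the NF-kB site (GGG and CC with 5 bases between them) matched at a single place in each window. It was GGGAACCCCC at position −186 from the start at 59541569, matching on both strands, and GGCTGTGCCC at position −8 from the start at 59542686, matching on the minus strand (50.8%). GAGGAA, the core bound by the macrophage factor PU.1, matched 3 times at the 59542686 start and 0 times at the 59541569 start (28.3%). The AP-1 letters TGANTCA (7.81%) and TATAAA (13.6%) were in neither window, and CANNTG, the E-box, was in the window at 59541569 alone (72.3%).

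The locus fell into 3 stretches of chromatin: an upstream part with scattered H3K27ac, the front of the gene dense in H3K27ac, and an H3K27me3 region that began beyond the gene and held olfactory receptor genes. No H3K27ac peak of the window met an H3K27me3 peak, and 3.36% of all H3K27ac peaks did so. The last H3K27ac peak ended at 59556569, inside the gene, and the first H3K27me3 peak began at 59570394, leaving 13824 bp with neither mark.

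**Figure D1:**
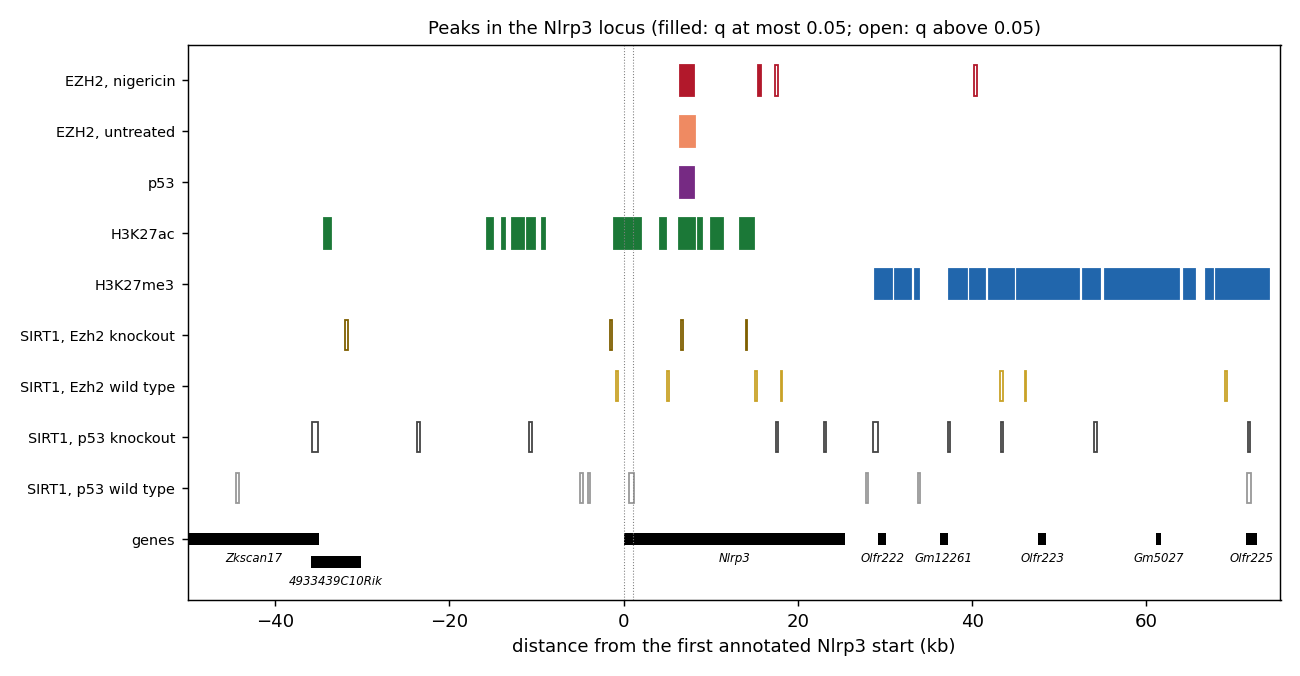
Peaks of the 9 lists in the Nlrp3 locus, by distance in kb from the start at 59541569 (dotted lines mark both annotated starts), with annotated genes at the bottom. Filled boxes have a q of at most 0.05 and open boxes a higher q; the 12 H3K27ac peaks end within the gene and the 12 H3K27me3 peaks begin 3439 bp after it.

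The highest H3K27ac fold lay over the promoters. That peak ran from 59540514 to 59543559 (3046 bp) and covered both starts, with its summit 437 bp after the start at 59541569. It had 80 fragments (63.4 to 99.6) and a fold of 4.86 (3.87 to 6.04), higher than 89.6% of H3K27ac peaks in its list. The local background there was 15.7 fragments, 5.84 times the most common value of the list, so the fold is set against a raised background. By the definition of the fold, a higher background gives a lower fold for the same fragments. Why the background was raised was not tested. Promoter windows of protein-coding genes were met by H3K27ac at 12.1%, by nigericin EZH2 at 1.26%, by untreated EZH2 at 3.57% and by p53 at 0.0894%.

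Another 5 H3K27ac peaks lay further into the gene, with folds of 2.60 (22 fragments), 3.75 (19), 3.21 (18), 4.84 (28) and 4.30 (27) in order along it. Of these, the peak from 59551556 to 59553024 was nearly as high in fold as the promoter peak, and their intervals overlap (3.27 to 6.92 for the intragenic one). In all, 6 H3K27ac peaks met the gene, and 6.73% of the 21883 protein-coding genes had as many; any H3K27ac peak met 31.4% of them. H3K27ac covered 31.7% of the gene, and 6.62% of 17491 protein-coding genes with a known strand were covered as much or more.

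Upstream, 6 H3K27ac peaks were listed. One of them (59507172 to 59508040, 4.17-fold, 18 fragments) lay in the lncRNA gene 4933439C10Rik near the start of Zkscan17. The other 5 lay between 59525866 and 59532505, before the Nlrp3 start, at 2.36, 2.61, 3.80, 3.91 and 2.30-fold with 22, 14, 26, 22 and 14 fragments. The one with the smallest p-value among these 5 spanned 59528775 to 59530106. None of the upstream peaks met an EZH2 or p53 peak, which is the common case: of all H3K27ac peaks, 0.405% met nigericin EZH2, 0.405% untreated EZH2 and 0.196% p53.

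Downstream, H3K27me3 began 3439 bp after the end of Nlrp3 and continued past the window. Its 12 peaks covered 36384 bp, which is 80.5% of the stretch from 59570394 to 59615617. Their folds ran from 2.97 to 6.19 with a median of 5.47, where the median of the list was 3.50, and they rested on 13 to 30 fragments. The longest, of 8448 bp (59596867 to 59605314), also had the highest fold (6.19, 4.15 to 8.90). H3K27me3 peaks lay over the promoter windows of Olfr222 (5.72-fold, 29 fragments), Olfr223 (5.51-fold, 25) and Olfr225 (6.15-fold, 28), which encode odorant receptors. H3K27me3 peaks met 15.6% of promoter windows of protein-coding genes.

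The 50 kb after Nlrp3 were 72.8% covered by H3K27me3, and 1.82% of the 17491 genes were covered as much there. Nlrp3 itself had no H3K27me3 peak, where 28.5% of protein-coding genes had one. Taking the Nlrp3 values as limits, 12 genes (0.0686%), Nlrp3 among them, had as much H3K27ac within the gene, as much H3K27me3 after it and no H3K27me3 within it. The other 11 were Cyth4, Dcakd, Dusp3, H2-D1, Mfsd11, Mknk1, Msrb1, Nfkbid, Rpl10a, Sdc3 and Trak1, named after their values were seen.

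At the window edges, the outermost members were a SIRT1 peak in p53 wild-type cells 5484 bp inside the left edge (2.32-fold, 3 fragments) and the H3K27me3 peak that ended 1338 bp inside the right edge (6.15-fold, 28 fragments). The nearest peaks left out were a SIRT1 peak in p53 knockout cells 3737 bp beyond the left edge (2.21-fold, 3 fragments) and an H3K27me3 peak 409 bp beyond the right edge (4.50-fold, 22 fragments).

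EZH2 and p53 met at a single place inside Nlrp3. The nigericin EZH2 peak there had 24 fragments (15.4 to 35.7) at 5.67-fold, and the untreated EZH2 peak had 40 fragments (28.6 to 54.5) at 6.26-fold. The p53 peak had 41 fragments (29.4 to 55.6) at 9.33-fold. The deposited −log10 q was 8.14 after nigericin, 16.3 in untreated cells and 24.6 for p53. The H3K27ac peak over the same bases was modest, with 19 fragments (11.4 to 29.7), 3.75-fold and a −log10 q of 5.29.

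The bases common to these 4 peaks ran from 59548030 to 59549614 (1585 bp), that is 6461 to 8045 bp after the start at 59541569 and well beyond either promoter. Their left edges lay within 129 bp of each other and their right edges within 100 bp, while the summits spread over 424 bp. The p53 and untreated EZH2 peaks differed by 16 bp at the left edge and 40 bp at the right, with summits 371 bp apart. Of 249 overlapping pairs of p53 and untreated EZH2 peaks, 13 (5.22%) had edges as close, and the median of the larger edge difference was 295 bp. The H3K27ac and untreated EZH2 edges differed by 129 and 2 bp, and 13 of 213 such pairs (6.10%) were as close. Among pairs with both peaks at least 1 kb long, 2 of 9 pairs of p53 and untreated EZH2 and 1 of 5 pairs of H3K27ac and untreated EZH2 were as close, the Nlrp3 pair being one of each. Exon positions were not used here, so the place is given by distance from the start and not as exon or intron. Whether the edges shared by the EZH2, p53 and H3K27ac peaks coincide with the bounds of an exon was not tested.

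**Figure D2:**
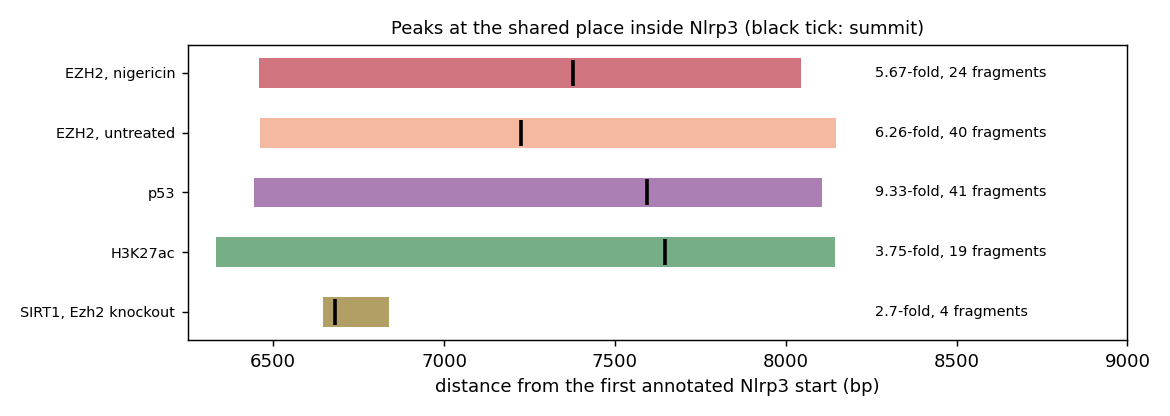
Peaks over the shared place inside Nlrp3, by distance in bp from the start at 59541569, with the summit of each as a black tick and its deposited fold and recovered fragments at the right. The EZH2, p53 and H3K27ac peaks begin within 129 bp of each other and end within 100 bp, and the SIRT1 peak in Ezh2 knockout cells covers a small part near the left edge.

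Each of these EZH2 and p53 peaks stood high in its list. By fold, the p53 peak ranked 3 of 5068, the nigericin EZH2 peak 26 of 5128 and the untreated EZH2 peak 46 of 9771. Most peaks of these lists had a q above 0.05: 59 p53, 761 nigericin EZH2 and 1746 untreated EZH2 peaks had a q of at most 0.05. Among those, the Nlrp3 peak had a higher fold than 94.9% for p53, 96.6% for nigericin EZH2 and 97.4% for untreated EZH2. The H3K27ac peak ranked 17318 of 51604. Local background at the place was also above the most common value, at 1.46 times for nigericin EZH2, 2.03 times for untreated EZH2, 1.80 times for p53 and 1.62 times for H3K27ac. The labels name a single untreated input for untreated EZH2 and p53, and other inputs for nigericin EZH2 and for the histone marks. The part of any of these inputs in the peaks was not tested.

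**Figure D3:**
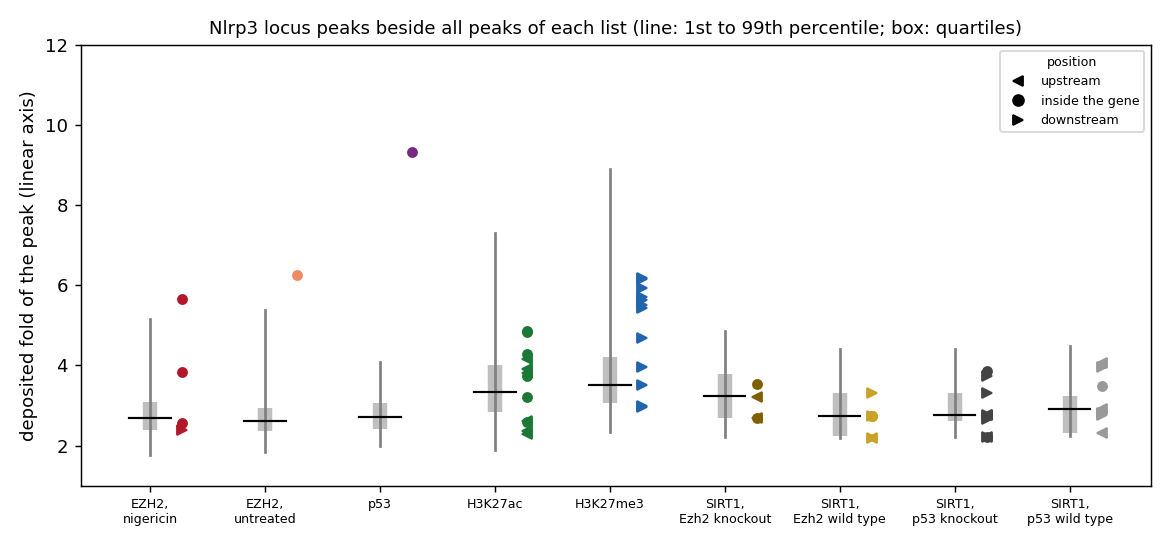
Deposited fold of each Nlrp3 locus peak (coloured points, shape by position) beside all peaks of its list (grey line from the 1st to the 99th percentile, box for the quartiles, black bar for the median). The p53 peak (9.33), the untreated EZH2 peak (6.26) and the highest nigericin EZH2 peak (5.67) lie above the 99th percentile of their lists, and the locus peaks of the other lists lie within that range.

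Among all 9771 untreated EZH2 peaks, 16.3% met a nigericin EZH2 peak, 2.53% a p53 peak and 2.17% an H3K27ac peak, while 41.5% met H3K27me3, which this one did not. Only 2 untreated EZH2 peaks (0.0205%) met nigericin EZH2, p53 and H3K27ac together, and neither met H3K27me3: that in Nlrp3 and one that overlaps an edge of Neat1, a long non-coding RNA gene on chromosome 19 that was named after its values were seen. At Neat1 the folds were 2.82 for nigericin EZH2 (11 fragments), 8.31 for untreated EZH2 (37), 7.14 for p53 (24) and 4.16 for H3K27ac (78). The nigericin EZH2 peak at Neat1 had a −log10 q of 0.197, against 8.14 at Nlrp3. Without H3K27ac in the requirement, 57 untreated EZH2 peaks met nigericin EZH2 and p53, and 54 of them lay outside H3K27me3.

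Between conditions, EZH2 was listed at the shared place both after LPS with nigericin and in untreated cells. Its fold after nigericin was 0.906 times that in untreated cells, with a counting interval of 0.522 to 1.54 that includes equality. Of all nigericin EZH2 peaks, 34.5% met an untreated one. The ratio of fragments was 0.600, and 0.701 after dividing each by the most common background of its list, both without an interval of their own. Ratios of fold from 0.522 to 1.54 are compatible with these counts, and with 1 library each the spread between libraries is unknown.

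The nigericin list held 3 further EZH2 peaks in the locus, all short and none met by an untreated EZH2 peak. The peak from 59557003 to 59557340 (338 bp), with its summit 15477 bp after the start at 59541569, had 12 fragments (6.20 to 21.0), 3.84-fold and a −log10 q of 1.70, and was the only one of the 3 with a q of at most 0.05. The peak from 59558896 to 59559237 (342 bp) had 11 fragments at 2.57-fold, and its local background was 1.57 times the most common value. The third, from 59581758 to 59582089 (332 bp), had 7 fragments at 2.39-fold, the lowest number of fragments in that list, and lay inside an H3K27me3 peak of 4.69-fold. It was the only EZH2 peak of either list within the 12 H3K27me3 peaks of the locus, and 52.6% of all nigericin EZH2 peaks met H3K27me3. H3K27me3 was mapped in untreated cells, so the mark at these bases after LPS and nigericin was not measured. With 3 nigericin EZH2 peaks within the gene, Nlrp3 had as many as 0.845% of protein-coding genes, and any nigericin EZH2 peak met 8.26% of them, an untreated one 13.5% and a p53 peak 5.27%.

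**Figure D4:**
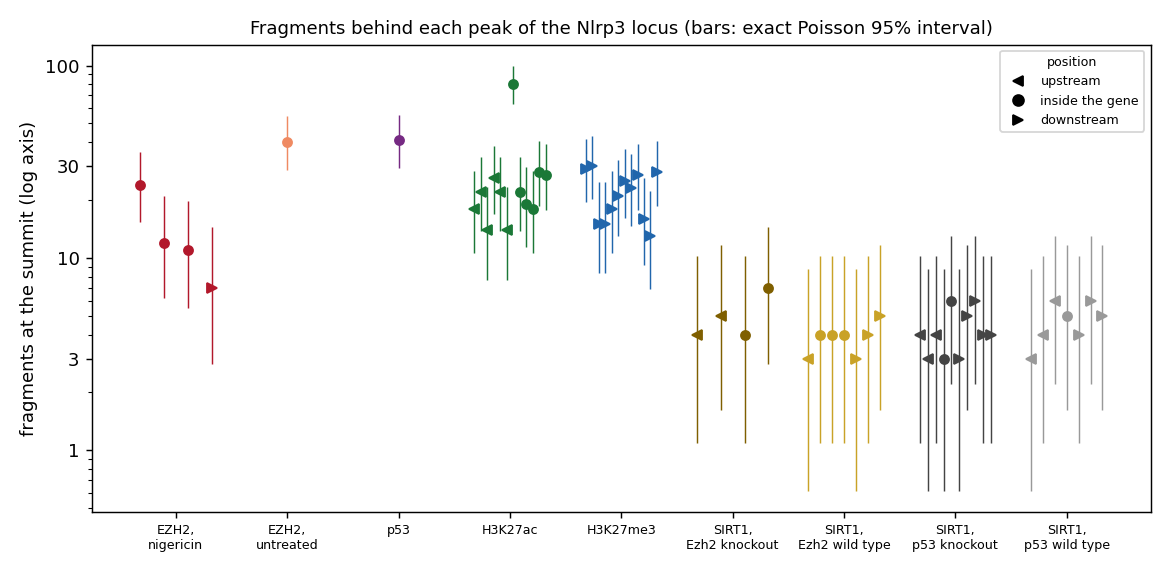
Fragments at the summit of each of the 58 peaks, on a log axis, with exact Poisson 95% intervals (counting error only); shapes give the position relative to Nlrp3. SIRT1 peaks rest on 3 to 7 fragments, the other peaks on 7 to 80, and the promoter H3K27ac peak has the most.

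The 28 SIRT1 peaks of the locus rested on 3 to 7 fragments, none had a q of at most 0.05, and the highest −log10 q was 0.451. This was near the rest of the lists, where 2.88% of all SIRT1 peaks passed that q in Ezh2 knockout, 0.333% in Ezh2 wild type, 0.54% in p53 knockout and 0.32% in p53 wild type. There were 4 in Ezh2 knockout and 7 in Ezh2 wild-type cells, and 10 in p53 knockout and 7 in p53 wild-type cells. The median protein-coding gene had 1 such peak in Ezh2 knockout, 6 in Ezh2 wild type, 5 in p53 knockout and 5 in p53 wild type. As many as at Nlrp3 were found at 18.8% of genes in Ezh2 knockout, 44.1% in Ezh2 wild type, 17.8% in p53 knockout and 33.1% in p53 wild type. Such windows held a SIRT1 peak at 68.8% and 92.7% of protein-coding genes in the Ezh2 knockout and Ezh2 wild-type lists, and at 88.6% in both the p53 knockout and the p53 wild-type list. The number of SIRT1 peaks in the whole lists was 18170 in Ezh2 knockout, 74767 in Ezh2 wild type, 59807 in p53 knockout and 56323 in p53 wild type, so the lists differ in length and the counts in the locus are not comparable as levels.

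In the Ezh2 pair, 0 of the 4 knockout SIRT1 peaks met a wild-type one, and 8.01% of all Ezh2 knockout SIRT1 peaks did. In the p53 pair, 1 of the 10 knockout peaks (59613239 to 59613447, 4 fragments) met a wild-type peak (59613090 to 59613525, 5 fragments), within Olfr225, and 4.69% of all p53 knockout SIRT1 peaks did. Such small counts do not set the locus apart from the lists. At the shared EZH2 and p53 place the Ezh2 knockout list had a SIRT1 peak of 192 bp (59548215 to 59548406) with 4 fragments (1.09 to 10.2) at 2.70-fold and a −log10 q of 0, and the Ezh2 wild-type, p53 knockout and p53 wild-type lists had none; SIRT1 peaks of these lists met 2.22% of untreated EZH2 peaks in Ezh2 knockout, 5.2% in Ezh2 wild type, 4% in p53 knockout and 4.73% in p53 wild type. Over the promoter at 59542686, the p53 wild-type list had a SIRT1 peak of 545 bp with 5 fragments (1.62 to 11.7) at 3.48-fold, and the p53 knockout list had none there; SIRT1 peaks met 3.63% of promoter windows in Ezh2 knockout, 6.75% in Ezh2 wild type, 8.39% in p53 knockout and 7.92% in p53 wild type. Within the gene bounds there were 2 SIRT1 peaks in Ezh2 knockout (29.7% of genes had any) and 3 in Ezh2 wild type (56.7%), and 2 in p53 knockout (53.3%) and 1 in p53 wild type (52.1%). At these depths, presence in 1 list and absence in another cannot be read as a difference.

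The highest SIRT1 values per list were 3.54-fold (7 fragments) in Ezh2 knockout, 3.30-fold (5) in Ezh2 wild type, 3.86-fold (6) in p53 knockout and 4.07-fold (6) in p53 wild type. The Ezh2 knockout peak (59555569 to 59555780) lay within Nlrp3 under H3K27ac, the p53 knockout peak (59564566 to 59564799) in the gene under neither mark, and the p53 wild-type peak (59537473 to 59537761) upstream of it. SIRT1 peaks that met H3K27ac were 2 of 4 in Ezh2 knockout (15.5% of the whole list), 1 of 7 in Ezh2 wild type (9.97%), 1 of 10 in p53 knockout (13.3%) and 1 of 7 in p53 wild type (12.3%). Those that met H3K27me3 were 0 of 4 in Ezh2 knockout (9.51%), 3 of 7 in Ezh2 wild type (8.46%), 5 of 10 in p53 knockout (7.76%) and 2 of 7 in p53 wild type (8.94%). All 10 SIRT1 peaks that met H3K27me3 lay downstream of the gene, which follows from all 12 H3K27me3 peaks of the locus lying there. H3K27me3 covered 72.8% of the 50 kb downstream. Both marks were mapped in untreated wild-type cells only. For the Ezh2 and p53 knockout lists, these overlaps therefore give the wild-type mark at those bases, and the mark in knockout cells was not measured.

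Most genes that work with NLRP3 had H3K27ac, as Nlrp3 did, and their EZH2 counts lay near or below the share of all genes. Of 30 pathway genes, counted over the gene with 1 kb either side, 27 had H3K27ac (33.7% of all protein-coding genes did), 2 had H3K27me3 (29.9%), 2 had nigericin EZH2 (8.99%), 2 had untreated EZH2 (14.4%) and 0 had p53 (5.53%). SIRT1 peaks were at 12 in Ezh2 knockout (32.2%), 22 in Ezh2 wild type (60.2%), 19 in p53 knockout (56.9%) and 21 in p53 wild type (55.8%). Among partners of the sensor, the kinase gene Nek7 had H3K27ac at 5.89-fold, Pycard at 4.13, Casp1 at 2.82 and Casp4, the mouse caspase-11 gene, at 3.52. Brcc3, a deubiquitinase gene, had no H3K27ac and had H3K27me3 at 5.44-fold. Txnip had untreated EZH2 at 2.24-fold with 9 fragments and a −log10 q of 0.

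Of the channel genes, P2rx7, the ATP-gated receptor, had H3K27ac at 6.23-fold, while the potassium channel gene Kcnk6 and the pannexin gene Panx1 had none. All 5 effector genes had H3K27ac: Ninj1, which carries out membrane rupture, at 4.93, Il1a at 4.83, Il18 at 4.21, Gsdmd at 3.57 and Il1b at 2.72, the last with 14 fragments. All 10 priming genes had it, from the kinase gene Irak4 at 2.49 to the NF-kB subunit gene Nfkb1 at 7.77. The negative regulators Tnfaip3 (4.87), Nfkbia (4.85), Il1rn (4.43) and Trim31 (4.19) did too, and Trim31 also had H3K27me3 at 6.67-fold. Tlr4, the LPS receptor gene, had an untreated EZH2 peak of 2.24-fold with 9 fragments and a −log10 q of 0.

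**Figure D5:**
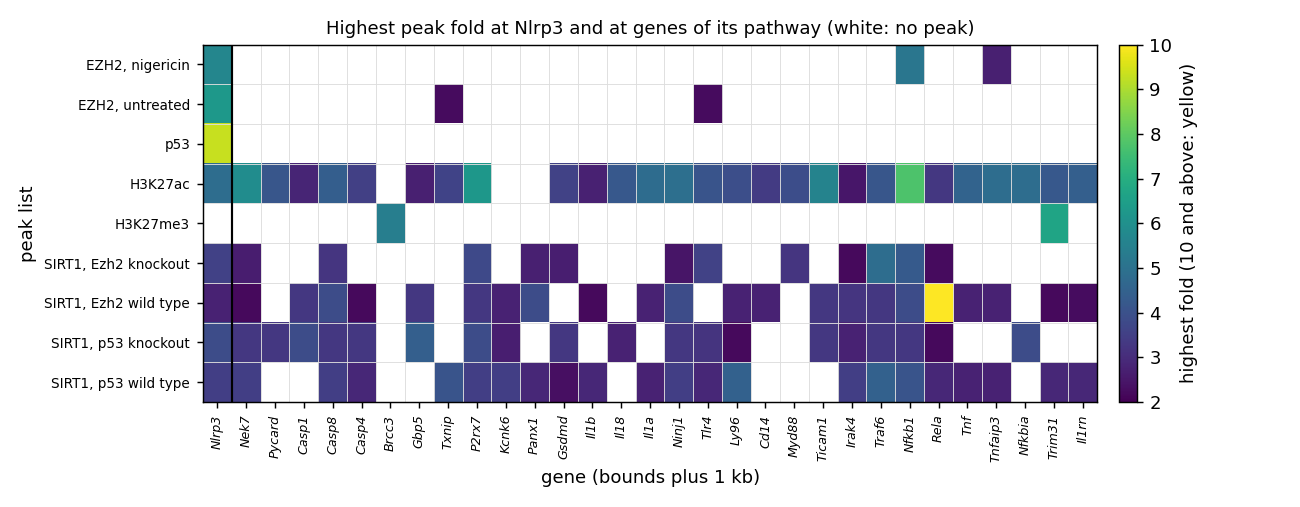
Highest deposited fold at Nlrp3 (left of the black line) and at 30 genes of its pathway, over each gene with 1 kb either side, in the 9 lists; white means no peak. The p53 row has a peak at Nlrp3 (9.33) and at 0 of the 30 others, where 5.53% of all protein-coding genes have one. The H3K27ac row has a peak at 27 of 30, where 33.7% of all protein-coding genes have one.

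By its profile over the 9 lists (log2 of the highest fold over the gene with 1 kb either side, with no peak set to a fold of 1), Nlrp3 was set beside every other protein-coding gene. The nearest genes lay at Euclidean distances of 1.96 to 2.54, where the median of all protein-coding genes was 5.85. They were the zinc-finger gene Zfp978, the centromere protein gene Cenpo, Sfmbt1, the F-box gene Fbxl17, Supt3, the sodium-proton exchanger gene Slc9a9, the cation channel gene Trpm3, Cpq, Adarb2 and the phospholipase gene Plcb4. Zfp978 had folds of 4.19 for nigericin EZH2, 3.67 for untreated EZH2 and 3.89 for p53, each below the Nlrp3 value. Its H3K27ac fold of 2.49 was also below the 4.86 of Nlrp3. Each of the other nearest genes also had lower EZH2 and p53 folds than Nlrp3. Plcb4, for example, had 2.37 for nigericin EZH2, 2.14 for untreated EZH2 and 3.74 for p53. The distance also counts the SIRT1 lists, in which no Nlrp3 peak had a q of at most 0.05. In bare presence of peaks, 16 other protein-coding genes had the same pattern as Nlrp3, with a peak in every list but H3K27me3. These peaks need not lie at the same bases, and the choice of nearest genes changed with the setting: 1 of the 10 remained when genes were extended by 5 kb, and 2 remained with q of at most 0.05.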

How the data were processed

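ChIP-seq peaks of 9 immunoprecipitated libraries were used, 1 list per sample; 7 input samples had no list of their own. The submitters' processing notes name MACS2, deepTools and GRCm38/mm10. No versions or aligner were given in the sources used here. The deposited fold (a ratio) sets fragments at the summit over local background, the deposited −log10 columns hold each peak's p-value and q-value, and the deposited score was not used for any result. These values are the authors' own, and describe a peak within its list. Every H3K27ac and H3K27me3 peak had a q of at most 0.05, while the other lists also held peaks above it, so ranks and counts were not compared between lists as levels.

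Peaks on chromosomes 1 to 19, X and Y were kept, with coordinates 1-based. Fragments k were solved from fold = (k + 1)/(background + 1) and the Poisson p-value, with a tolerance of 0.0001 on the −log10 scale. This gave whole fragments for 99.96% or more of every list, and the step was tested on simulated peaks. Overlap meant at least 1 bp. Genes and promoters came from RefSeq (GRCm38.p6). Python 3.11.15, pandas 2.3.3 and scipy 1.17.1 were used. With 1 library per group there was no test between groups.

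Genes named were Nlrp3, its neighbours in the window, 30 pathway genes and the 10 nearest profiles; others are marked where given. Members and lists were chosen with earlier results of these data known. Alternatives were other windows (20 and 100 kb; 5 kb for genes), stricter q, lists of 5068 peaks each, other overlap rules and other measures of rank and ratio.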

Additional observations from a re-analysis of the deposited data

How the results depend on the processing

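The causes of the changes below were not tested beyond the construction of each alternative, which keeps fewer or more peaks. The 58 peaks of the locus became 28 with q of at most 0.05, 18 with a −log10 q of at least 5, and 16 with every list limited to the 5068 peaks of the shortest; windows of 20 and 100 kb held 43 and 82. The 28 SIRT1 peaks became 0 under both q limits, 5 at equal list lengths and 43 in the 100 kb window. The shared place inside Nlrp3 held peaks of 5 lists, of 4 under either q limit, of 3 at equal lengths and of 2 when summits had to lie within 200 bp. The nigericin to untreated EZH2 ratio was 0.906 by fold, 0.600 by fragments and 0.701 by fragments over the most common background. The counting interval of 0.522 to 1.54 belongs to the ratio of folds, and the other measures were given none. Of the 10 genes nearest in profile, 1 was kept with gene bounds plus 5 kb and 2 with q of at most 0.05. The EZH2 and p53 peaks of the shared place passed all q limits and equal lengths. Under the summit limit of 200 bp only the 2 EZH2 peaks stayed. The p53 summit lay 371 bp and the H3K27ac summit 424 bp from the untreated EZH2 summit. The SIRT1 peaks rest on as few as 3 fragments, which limits what their presence or absence shows. No paired analysis was possible because each group holds 1 library and no test was made.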

Other observations

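Among the genes of the NLRP3 pathway, Nfkb1, which encodes an NF-kB subunit, also held several EZH2 peaks in the nigericin list. Only 2 of the 30 pathway genes had any such peak, and 8.99% of all protein-coding genes did. Nlrp3 had its highest EZH2 fold in the untreated list, which Nfkb1 did not. Nfkb1 had 4 nigericin EZH2 peaks and no untreated one, and the share of all genes with as many is not given here. The highest, on chromosome 3 from 135616217 to 135617750 (1534 bp), had 17 fragments at 5.15-fold and a −log10 q of 4.91, and the others had 9 to 11 fragments at 2.86 to 2.87-fold with a −log10 q of at most 0.274. None of the 4 met H3K27ac or H3K27me3. Tnfaip3, the gene of the NF-kB inhibitor A20, had 2 nigericin EZH2 peaks of 8 fragments each, both under H3K27ac and with a −log10 q of 0. Both histone marks were mapped in untreated cells, so the marks at Nfkb1 and Tnfaip3 after LPS and nigericin were not measured. Whether the absence from the untreated list reflects a difference between conditions was not tested.

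At Rela, another NF-kB subunit gene, the Ezh2 knockout list had a highest SIRT1 fold of 2.24 with 5 fragments, against 17.1 with 44 fragments and a −log10 q of 41.2 in the Ezh2 wild-type list. The highest SIRT1 fold there was 2.21 with 3 fragments in the p53 knockout list and 2.90 with 4 fragments in the p53 wild-type list. The Ezh2 wild-type peak was chosen after its value was seen and has no replicate.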
